A study of Homo sapiens with 6 samples.

Results

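The genes described here encode 6 proteins that coat messenger RNA: the cytoplasmic poly(A)-binding proteins PABPC1 and PABPC4, the nuclear poly(A)-binding protein PABPN1, the Y-box proteins YBX1 and YBX3, and the La-related protein LARP1. They were chosen by gene symbol, and each symbol matched 1 of the 61806 genes listed. Poly(A) RNA was sequenced from MG63, an established human osteosarcoma line. Cells in which FTO was stably knocked down with a short hairpin (shFTO, 3 biological replicates) were compared with control hairpin cells (shNC, 3 biological replicates), to find transcripts that depend on FTO, an RNA demethylase that acts on N6-methyladenosine. Both groups are the same cell line and both carry a hairpin, and whether either is a single clone is not given in the sources used here.

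A messenger RNA leaves the nucleus with a poly(A) tail and a coat of protein. PABPN1 binds the growing tail in the nucleus, stimulates poly(A) polymerase and limits the final tail length. In the cytoplasm PABPC1 takes over the tail and contacts the initiation factor eIF4G at the other end of the message, and PABPC4 is a close relative of it. YBX1 and YBX3 bind along the message through a cold shock domain and pack it into particles that are translated less. LARP1 binds the cap and the pyrimidine-rich start of messages for ribosomal proteins, and links their translation to mTOR signalling.

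Expression was given as FPKM, which divides reads by the exonic length of a gene and by the library total. At this rounding each value could be turned back into whole reads, which came to between 93629 and 106245 per library and 592760 in all. In bulk RNA, fewer cells with a transcript and less of it per cell cannot be told apart. FTO itself was listed at 0 in all 6 libraries, the controls included. A count of 0 allows up to 3 reads over a group, or 0.486 FPKM in shNC and 0.462 FPKM in shFTO, so the knockdown could not be checked. Of 9 bone and mesenchyme markers 6 had reads, with a summed level of 127 to 182 FPKM in shNC and 150 to 185 FPKM in shFTO, while ALPL, BGLAP and SPP1 were at 0. Blood and muscle markers had no reads, the endothelial and neural markers had 1 read each, and the epithelial markers had 8.

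The Y-box genes were the pair in which sequence mattered most for the reading of the counts. YBX1 has processed pseudogenes, copies of its spliced message inserted elsewhere in the genome, and some of them were given reads. The lines below show 120 bases of the YBX1 coding sequence, the stretch most like YBX3 that all of these copies also hold, taken from GENCODE release 29 transcripts on GRCh38. Capitals mark bases that differ from YBX1.

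YBX1: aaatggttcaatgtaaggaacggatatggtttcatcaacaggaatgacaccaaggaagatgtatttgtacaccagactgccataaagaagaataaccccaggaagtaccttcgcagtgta
YBX1P10: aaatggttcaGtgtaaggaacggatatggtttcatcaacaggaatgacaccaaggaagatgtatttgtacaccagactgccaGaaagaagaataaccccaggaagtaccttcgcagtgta
YBX1P1: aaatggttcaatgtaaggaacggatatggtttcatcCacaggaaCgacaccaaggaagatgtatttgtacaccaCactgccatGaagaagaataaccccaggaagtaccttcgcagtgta
YBX1P6: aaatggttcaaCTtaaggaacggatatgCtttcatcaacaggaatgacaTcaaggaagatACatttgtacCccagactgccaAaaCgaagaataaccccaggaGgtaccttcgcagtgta
YBX3: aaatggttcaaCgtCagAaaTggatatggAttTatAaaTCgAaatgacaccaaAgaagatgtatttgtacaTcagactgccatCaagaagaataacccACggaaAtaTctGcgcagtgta

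Within this stretch YBX1P10 differed from YBX1 at 2 bases, YBX1P1 at 4, YBX1P6 at 10 and YBX3 at 18. The YBX1 stretch lies at chr1:42683426-42696243 on the plus strand, with introns between its ends. The YBX3 stretch lies at chr12:10715739-10719120 on the minus strand and is also split by introns. The copies are unbroken and on the minus strand, at chr9:35972009-35972128 for YBX1P10, chr14:66013493-66013612 for YBX1P1 and chr9:109534021-109534140 for YBX1P6. Over the whole aligned length the identity to YBX1 was 97.5% for YBX1P10 (974 bases), 98.5% for YBX1P1 (957 bases) and 94% for YBX1P6 (968 bases). YBX3 aligned to YBX1 over 328 bases only, at 78% identity.

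YBX1 (ENSG00000065978, GRCh38 chr1:42682418-42703805, plus strand) dominated the Y-box pair. It stood at 6778, 6559 and 6566 FPKM in shNC replicates 1, 2 and 3, and at 6609, 6612 and 6374 FPKM in shFTO replicates 1, 2 and 3. The highest library was a control and the lowest a knockdown, and the groups overlapped. Its 13242 reads were 2.23% of all reads, and it ranked 3 by FPKM among 7057 genes with reads, behind EIF4G2 and EIF1. The spread between libraries was small, with a coefficient of variation of 1.87% in shNC and 2.09% in shFTO, where counting error alone would give 2.15% and 2.11%.

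YBX1 did not pass the test between the groups. Its mean was 6634 ± 124 FPKM (SD, n = 3) in shNC and 6532 ± 137 FPKM (SD, n = 3) in shFTO, a log2 fold change of -0.02 (SE 0.04, limma adjusted p = 0.878). The 95% interval of the ratio of shFTO to shNC ran from 0.931 to 1.04. The quasi-Poisson fit to recovered reads gave a ratio of 0.985 with an interval from 0.94 to 1.03. Limma-voom on recovered reads gave the same log2 change of -0.02, with an unadjusted p of 0.026 and an adjusted p of 0.913. That p rests on an SE of 0.01, smaller than the 0.04 of limma and the 0.034 of the quasi-Poisson fit. In the limma-voom fit 2.58% of the 4932 genes tested had an unadjusted p under 0.05.

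YBX3 (ENSG00000060138, chr12:10699089-10723323, minus strand), which also associates with tight junctions, was scarce. It had 7, 1 and 11 reads in shNC replicates 1, 2 and 3, or 8.61, 1.15 and 13.63 FPKM. In shFTO replicates 1, 2 and 3 it had 3, 3 and 5 reads, or 3.28, 3.7 and 5.61 FPKM. The control libraries held both the highest and the lowest value, with all shFTO libraries between them. Its mean was 7.8 ± 6.28 FPKM (SD, n = 3) in shNC and 4.2 ± 1.24 FPKM (SD, n = 3) in shFTO, with a log2 fold change of -0.39 (SE 0.83, limma adjusted p = 0.901). The 95% interval of the fold ran from 0.236 to 2.45 in limma, which includes a 2-fold change in either direction. The quasi-Poisson fit to recovered reads gave a ratio of 0.551 with an interval from 0.2 to 1.52. The limma log2 change was above 0, at 0.17, without shNC replicate 3, and was -1.22 without shNC replicate 2.

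**Figure D1:**
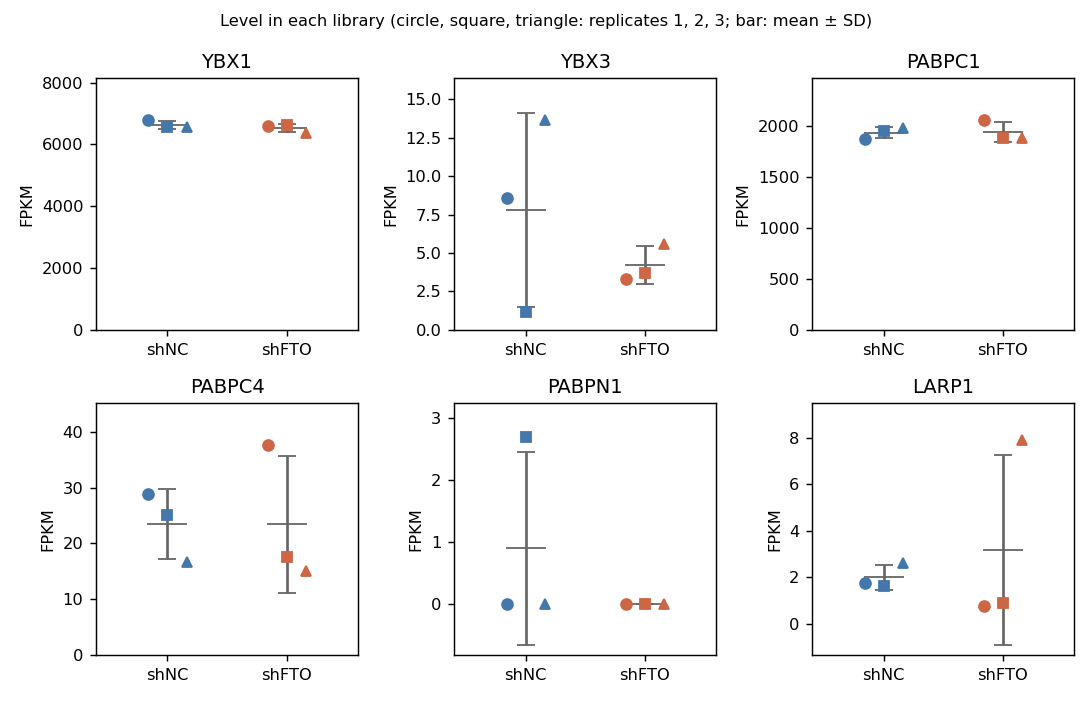
FPKM of each gene in the 3 shNC libraries (blue) and the 3 shFTO libraries (orange), with circles, squares and triangles for replicates 1, 2 and 3 and grey bars for mean ± SD. The groups overlap in every panel, YBX1 and PABPC1 vary by a few percent, and LARP1 and PABPN1 each have 1 library above the others.

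Of the 10 annotated YBX1 pseudogenes, 3 were given reads, 336 in all. YBX1P10 had 27, 38 and 29 reads in shNC replicates 1, 2 and 3, and 45, 18 and 39 in shFTO replicates 1, 2 and 3. YBX1P1 had 22, 20 and 26 reads in shNC and 20, 20 and 28 in shFTO, and YBX1P6 had 0, 1 and 0 reads in shNC and 1 read in each shFTO library. The spread of YBX1P10 was wider in shFTO, where replicate 2 was the lowest of the 6 libraries and replicate 1 the highest. YBX1P10 stood at 332 ± 47.9 and 339 ± 126 FPKM (limma adjusted p = 0.986), and YBX1P1 at 246 ± 41.6 and 233 ± 44.1 FPKM (limma adjusted p = 0.899). YBX1P6, with at most 1 read in a library, had a log2 fold change of 2.29 (unadjusted p = 0.0187, limma adjusted p = 0.772). Set against the parent gene, all pseudogenes together had 2.51 ± 0.215 reads per 100 YBX1 reads in shNC and 2.55 ± 0.624 in shFTO.

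Reads of these loci are uncertain, since the copies can share reads. Of all 50-base windows of the main YBX1 transcript, 41.4% also occur in a transcript of another gene. In turn 43.6% of the windows of YBX1P1, 29.4% of those of YBX1P10 and 5.46% of those of YBX1P6 are found in YBX1. YBX1P2, with 14.6% of its windows in YBX1, had no reads. None of the YBX3 windows occur in YBX1, so at that length these 2 genes can be told apart. With pseudogene reads added, YBX1 made up 2309 ± 38.4 of every 100000 reads in the control libraries and 2274 ± 39.5 in the knockdown libraries (SD, n = 3 each).

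**Figure D2:**
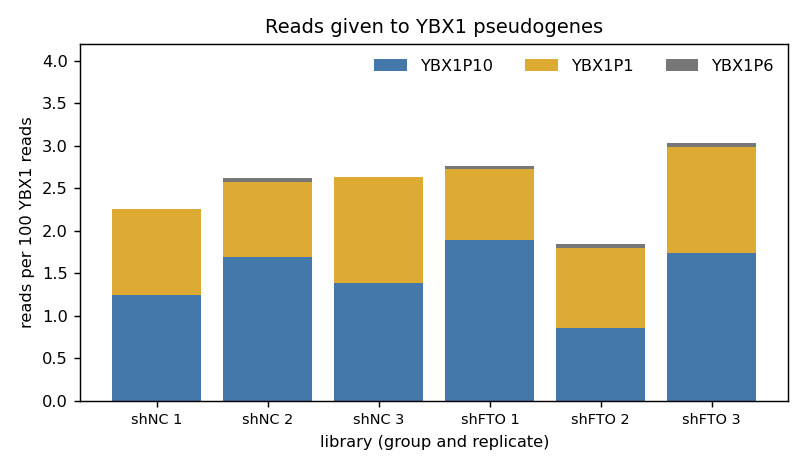
Reads given to YBX1P10, YBX1P1 and YBX1P6 (stacked bars) per 100 YBX1 reads in each of the 6 libraries. The total runs from 1.85 in shFTO replicate 2 to 3.04 in shFTO replicate 3, with the 3 shNC libraries between them.

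Among the poly(A)-binding genes, PABPC1 (ENSG00000070756, chr8:100685816-100722809, minus strand) held nearly all reads. It stood at 1875, 1947 and 1980 FPKM in shNC replicates 1, 2 and 3, and at 2055, 1885 and 1886 FPKM in shFTO replicates 1, 2 and 3. shFTO replicate 1 was the highest library and shNC replicate 1 the lowest, and the groups overlapped. PABPC1 had 10976 reads, 1.85% of the total. Its coefficient of variation was 2.77% in shNC and 5.03% in shFTO, against 2.37% and 2.31% from counting error alone, and its dispersion, the variance between libraries over that of pure counting, was 3.09 and lay near the upper quartile, 3.11, of the 150 genes that averaged 100 or more reads a library.

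PABPC1 did not pass the test either. The means were 1934 ± 53.7 FPKM (SD, n = 3) in shNC and 1942 ± 97.6 FPKM (SD, n = 3) in shFTO, with a log2 fold change of 0.01 (SE 0.07, limma adjusted p = 0.998). The 95% interval of the fold ran from 0.914 to 1.1 in limma and from 0.955 to 1.06 in the quasi-Poisson fit. A 1.5-fold change thus lies outside the intervals of both PABPC1 and YBX1. In tests on simulated reads, limma found 64.3% of genes changed 1.5-fold and 97% of genes changed 2-fold among those with at least 100 reads per library. The quasi-Poisson fit found 95% and 100%. Beside the 100 changed genes, limma called 6.67 and 13.3 unchanged genes on average, and the quasi-Poisson fit 8.33 and 11.3. YBX1 and PABPC1 ranked 8 and 9 by reads, far above the lower limit of that class, so these shares are not their own. Of 13 annotated PABPC1 pseudogenes 1 had reads, PABPC1P4, with 4. The main PABPC1 transcript shares 12% of its 50-base windows with other genes, most of them with PABPC3, a retrogene listed at 0.

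PABPC4 (ENSG00000090621, chr1:39560709-39576790, minus strand), known as the inducible form and first found in activated T cells, was far lower. It had 28, 26 and 16 reads in shNC replicates 1, 2 and 3, or 28.89, 25.06 and 16.63 FPKM. It had 41, 17 and 16 reads in shFTO replicates 1, 2 and 3, or 37.56, 17.59 and 15.05 FPKM. shFTO replicate 1, the library with the most PABPC1, also had the most PABPC4, and the other shFTO libraries lay within or just under the control range. The means were 23.5 ± 6.27 and 23.4 ± 12.3 FPKM (SD, n = 3 each), with a log2 fold change of -0.09 (SE 0.43, limma adjusted p = 0.959). The interval of the fold ran from 0.515 to 1.73. Without shFTO replicate 1 the log2 change was -0.47, and without shFTO replicate 3 it was 0.16. In shFTO, where replicate 1 stood apart, PABPC4 varied more than counting error would give, with a coefficient of variation of 52.7% against 20.2%. In shNC it was 26.7% against 20.7%.

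PABPN1 (ENSG00000100836, chr14:23321457-23326163, plus strand) was at the limit of detection. It was listed at 0 in 5 of the 6 libraries and at 2.69 FPKM, from 1 read, in shNC replicate 2. Over the shFTO group a count of 0 allows up to 2.68 FPKM. It was therefore below the filter on low values and was not tested. BCL2L2-PABPN1, an annotated readthrough gene on the same strand that spans PABPN1, was also at 0. It shares 31% of the 50-base windows of the main PABPN1 transcript.

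LARP1 (ENSG00000155506, chr5:154682986-154817605, plus strand) had 2, 2 and 3 reads in shNC replicates 1, 2 and 3, or 1.73, 1.62 and 2.62 FPKM. In shFTO it had 1, 1 and 10 reads, or 0.77, 0.87 and 7.9 FPKM in replicates 1, 2 and 3. shFTO replicate 3 was above all other libraries and the other 2 shFTO libraries were below all controls. The means were 1.99 ± 0.548 FPKM and 3.18 ± 4.09 FPKM (SD, n = 3 each), with a log2 fold change of 0.06 (SE 1.04, limma adjusted p = 1). Without shFTO replicate 3 the log2 change was -0.7, and without shFTO replicate 1 it was 0.46. From 7 reads against 12, the size-scaled ratio of shFTO to shNC was 1.63 (exact 95% interval 0.592 to 4.89), which covers counting error only. No 50-base window of the main LARP1 transcript occurs in another gene.

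Across the set, 0 of the 5 tested genes were called by limma at an adjusted p under 0.05, where 0.0406% of all 4932 tested genes were called. At an unadjusted p under 0.05 the count was also 0, against 3.85% of all tested genes. The quasi-Poisson fit called 0 of the 4 genes it could test, against 0% of 1021 genes, and 0 had an unadjusted p under 0.05, against 5.29%. Groups that did not overlap were found for 0 of the 6 genes, against 6.59% of all tested genes. The median log2 fold change of the 5 genes was -0.02, beside 0.00395 over all genes tested. Of simulated 2-fold changes in genes with 2 to 30 reads per library, limma found 1.67% and the quasi-Poisson fit 7.67%. PABPC4, YBX3 and LARP1 fall in that range, where most such changes were missed. These shares are not their own, since every simulated gene had a dispersion of 1.81, while PABPC4 had 4.24 and YBX3 2.34.

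**Figure D3:**
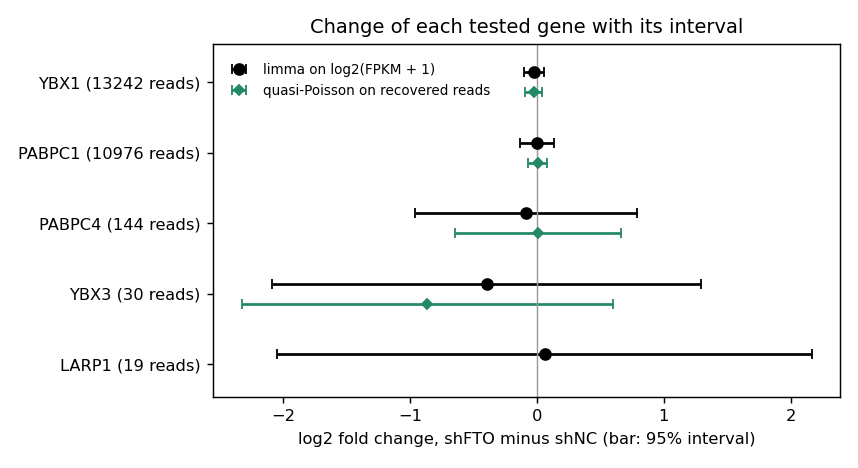
Log2 fold change of shFTO against shNC (horizontal axis) for the 5 tested genes, with 95% intervals from limma (black circles) and, for all but LARP1, which had too few reads for it, from the quasi-Poisson fit to recovered reads (green diamonds), ordered by reads. Intervals widen from 0.931 to 1.04 on the fold scale for YBX1 to 0.242 to 4.5 for LARP1, and all include no change.

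**Figure D4:**
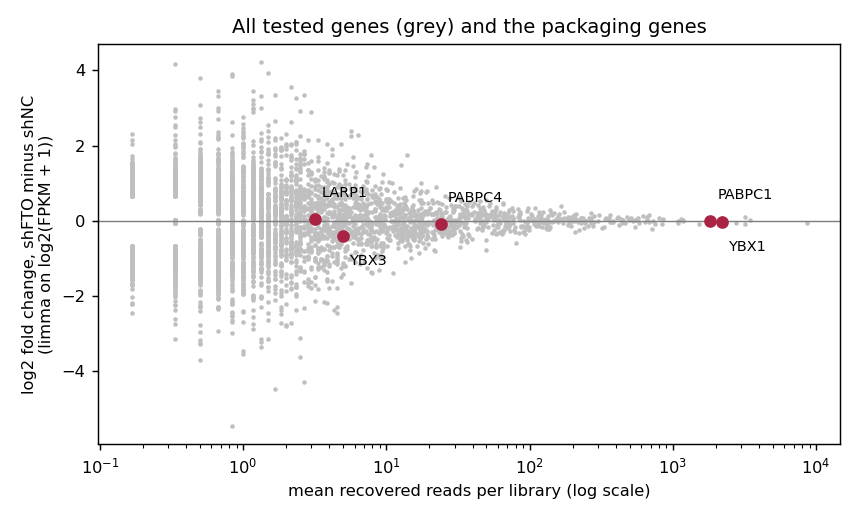
Log2 fold change of shFTO against shNC (vertical axis) against mean reads per library (horizontal axis, log scale) for the 4932 tested genes in grey, with the 5 tested packaging genes in red. YBX1 and PABPC1 sit at the well-read end at -0.02 and 0.01, and YBX3 and LARP1 sit where single reads move the estimate.

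Levels, which FPKM gives per exonic length, ran from a mean of 6583 FPKM for YBX1 over 1938 for PABPC1, 23.5 for PABPC4, 6 for YBX3 and 2.59 for LARP1 to 0.448 for PABPN1, over the 6 libraries. YBX1 was above PABPC1 in 6 of 6 libraries, by 3.22 to 3.61 times. The ratio of their FPKM was 3.43 ± 0.159 in shNC and 3.37 ± 0.146 in shFTO (SD, n = 3 each). PABPC1 was above PABPC4 by 54.7 to 125 times, and PABPC4 was above YBX3 in 6 of 6 libraries by 1.22 to 21.8 times. YBX3 was above LARP1 in 4 of 6 libraries, with ratios from 0.71 to 5.2, and the difference between their levels was not tested. LARP1 was above PABPN1 in 5 of 6 libraries.

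The exonic length in the files joins all annotated transcripts of a gene and was 1.84 to 4.8 times the length of the main transcript, most for YBX3. Per kilobase of the main transcript and per 100000 reads, YBX1 had 1476 reads, PABPC1 531, PABPC4 7.97, YBX3 2.82, LARP1 0.486 and PABPN1 0.0843. The order was the same on that scale. The 6 genes together held 4.12% of all reads, and YBX1 and PABPC1 held 99.2% of that. Their sum was 4132 ± 18.2 of 100000 reads in shNC and 4103 ± 130 in shFTO (SD, n = 3 each).

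The neighbours of YBX1 in level were genes of translation and RNA binding. EIF4G2 and EIF1 stood above YBX1 at 10270 and 8931 FPKM over the 6 libraries, and EIF5A and HNRNPA3 below it at 5765 and 5369. UBE2D3, a ubiquitin-conjugating enzyme gene, and RAB1A, a GTPase gene of vesicle transport, were among the nearest to PABPC1, at 2232 and 1786 FPKM. PABPC4 lay among EIF3A, CRIM1, VGLL3 and BCL9, all between 23.3 and 23.5 FPKM. Over the 6 libraries the genes whose log2(FPKM + 1) followed YBX1 most closely, among the 149 other genes read that deeply (100 reads a library or more), were RAP1B (r = 0.968), SYNCRIP (r = 0.883) and RC3H2 (r = 0.859). For PABPC1 they were FAR1 (r = 0.935), EWSR1 (r = 0.866) and NAP1L1 (r = 0.832). These are descriptions over 6 libraries that share their totals, and YBX1 and PABPC1 ranged over only 0.09 and 0.13 log2 units.

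The genes that work with these proteins were read from 9 lists of 117 genes, of which 96 had reads, 79 were tested and 0 passed the test in either direction, with 2 at an unadjusted p under 0.05. Their median log2 fold change was -0.02. Of 19 partners of cytoplasmic poly(A)-binding protein 15 were tested, and PAIP2, a translation repressor that displaces it from the tail, had the most reads, at 518 ± 112 FPKM in shNC and 596 ± 27.1 in shFTO (limma adjusted p = 0.772). TOB1, an antiproliferative adaptor that brings the deadenylase to it, had 94.9 ± 42.1 and 61 ± 23.5 FPKM (limma adjusted p = 0.772). Of the other poly(A)-binding genes 2 of 8 had reads, and ZC3H14, a zinc finger protein of the nuclear tail, had 12.9 ± 3.8 and 12.5 ± 2.55 FPKM.

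Deadenylation genes, which shorten the tail, had 3112 reads in shNC and 3408 in shFTO, and 0 of 13 tested passed. Scaled to library size their sums overlapped, at 1022 to 1163 of 100000 reads in shNC and 1057 to 1162 in shFTO. BTG1, which activates deadenylation, had the most, at 1162 ± 151 and 1231 ± 169 FPKM. Of 19 nuclear polyadenylation genes 15 were tested. PAPOLA, the canonical poly(A) polymerase, had 164 ± 11.5 and 173 ± 17 FPKM, and CLP1, a subunit of the cleavage factor, had 5 reads in shNC and 0 in shFTO (unadjusted p = 0.0331, limma adjusted p = 0.772). The estimate of CLP1 rests on shNC replicates 2 and 3, since shNC replicate 1 was at 0 too.

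Other La-related genes were scarcer than LARP1, which had 19 reads in all, and LARP4 led them with 11. The 6 of them together had 16 reads in the controls and 9 in the knockdown. Scaled to library size these sums did not overlap, at 4.95 to 6.41 of 100000 reads in shNC and 1.93 to 4.25 in shFTO. They rest on few reads and are from 1 of the 9 lists read. The sums of another of these lists did not overlap either, with shFTO the higher group there. Among single genes, groups did not overlap for 6.59% of all 4932 tested, which is not a share of list sums. The 3 tested genes of the La-related list had estimates below 0, with a median log2 fold change of -0.79 beside 0.00395 over all genes tested. Limma called 0 of the 3, with 0 at an unadjusted p under 0.05 and a lowest adjusted p of 0.772. In the mTOR list RPS6KB1, a kinase of ribosomal protein S6, had 179 ± 18.7 and 177 ± 20.6 FPKM. EIF4EBP1, whose product binds the cap-binding protein eIF4E and blocks its contact with eIF4G, had 3 reads in shNC and 0 in shFTO (unadjusted p = 0.0189, limma adjusted p = 0.772). The estimate of EIF4EBP1 rests on 1 and 2 reads in shNC replicates 1 and 2, since shNC replicate 3 was at 0 too.

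Of 19 stress granule and particle partners 18 were tested and 0 passed. SYNCRIP, an RNA-binding protein of such particles, had 838 ± 48.4 and 789 ± 84.6 FPKM. STAU1, which binds double-stranded RNA, had 2 reads in each shNC library and 0, 1 and 0 in shFTO replicates 1, 2 and 3 (limma adjusted p = 0.772). Among 19 mRNA export genes 12 were tested and 0 passed, and CHTOP, an export adaptor, had 251 ± 43.4 and 225 ± 19.7 FPKM. Values are mean ± SD with n = 3 per group in these lists.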

How the data were processed

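RNA-seq of 6 MG63 libraries was held as FPKM per gene, deposited by the authors with 2 decimals, together with exonic lengths, positions and symbols. HISAT2 2.2.1, StringTie 1.3.3b, HTSeq 0.6.1, DESeq2 1.50.2 and FastQC 0.10.1 are named in the submitters' processing notes, with GRCh38. What each did, the annotation release, the strand setting and whether the table holds all reads of a library is not given in the sources used here. Columns named NC or sh with a number were matched to shNC and shFTO replicates by those names. The column names of shFTO give only sh, and the match rests on the control columns carrying NC.

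Whole reads were recovered by searching the library total at which FPKM times length is whole, and 100% of values above 0 were whole within 0.05 read. The main test was limma 3.58.1 (R 4.3.3, trend and robust moderation, group only) on log2(FPKM + 1). It took the 4932 genes whose mean reached 1 FPKM in either group, with Benjamini-Hochberg adjustment over all of them and a threshold of 0.05. Fold changes on this scale understate the change of low genes. Reads were also fitted with a quasi-Poisson model with moderated dispersion for 1021 genes with at least 30 reads, and with limma-voom. The limma test on log2(FPKM + 1) and the quasi-Poisson fit were tested on simulated data, with 3 simulations per setting and every gene given the median moderated dispersion of 1.81. Limma-voom was not simulated. Exact Poisson and binomial intervals (SciPy 1.17.1, Python 3.11.15) cover counting error only, since PCR reads are not independent molecules.

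The members and lists were chosen with earlier results of these data known. Named beside the 6 genes were overlapping genes and pseudogenes, the most-read gene and the tested gene with the smallest p of each list, the 3 most alike genes and the nearest genes in level. The rule also took THOC3 (4 reads), LARP6 (5 reads) and further neighbours in level, which are not described. A gene that the rule takes is not reported here. Transcript sequences and lengths came from GENCODE release 29 on GRCh38, using the APPRIS principal transcript of each gene.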

Additional observations from a re-analysis of the deposited data

How the results depend on the processing

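None of the packaging genes that could be tested was called: 0 of 3 with at least 10 reads per library, 0 of 4 in the quasi-Poisson fit, 0 of 6 with no filter and without shNC replicate 1 or 3, and 0 of 5 with a pseudocount of 0.1, median-of-ratios scaling, limma-voom, the replicate block and each other library left out. The number of all genes called was less steady. It was 2 as reported, 7 with a pseudocount of 0.1, 9 with no filter, 0 with at least 10 reads per library, 11 in limma-voom, 0 in the quasi-Poisson fit and 17 with the replicate block, and ran from 2 to 9 with 1 library left out (9 without shNC replicate 2, 7 without shNC replicate 3 and 8 without shFTO replicate 1). The cause was not tested. Same-numbered libraries did not deviate together (correlations of -0.00292, 0.0392 and -0.0116 over 705 genes), so the numbers were not taken as pairs. YBX1 was below 0 in 13 of 13 alternatives, with log2 changes from -0.035 to -0.0049. The alternatives reuse the same libraries and are not independent. With no filter, at least 10 reads per library or the replicate block, the YBX1 estimate was the same as in the main fit. The sign of PABPC1, PABPC4, YBX3 and LARP1 differed between alternatives, at log2 changes from -0.04 to 0.03, -0.47 to 0.16, -1.22 to 0.17 and -0.7 to 0.46. Adjusted p values were 0.783 or more in all of these. PABPN1 could be tested with no filter and without shNC replicate 1 or 3, where its limma adjusted p lay between 0.678 and 0.787. The summed reads of the 6 genes differed by -29.3 of 100000 between shFTO and shNC, by 5.38 without YBX1, and from -101.7 without shFTO replicate 1 to 24.8 without shFTO replicate 3. PABPN1, LARP1 and YBX3 had the fewest reads of the set, with 1, 19 and 30 in all, and the reason was not tested.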
